A study of Homo sapiens with 6 samples.

Results

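The complement genes described here are 9 of the 34738 genes in the deposited table, taken by their symbols: C3, CFB, C1R, C1S, CFI, SERPING1, CD46, CD55 and CD59. They were chosen by their function and with the differences between siGDF15 and NC in these 6 libraries already known, so those differences are given as a description, and where a gene of the 9 is said to be called by the fit over all genes, that too describes it and supports nothing. Thyroid cancer cells of the line KHM-5M in which GDF15 had been silenced with an siRNA (siGDF15) were compared with control cells of that line (NC), with 3 libraries in each group. The labels give 1 cell line and no treatment other than the knockdown, the time after transfection was not given in the sources used here, and the study's legend for these data names the line TPC-1. The control is called a negative control in the methods, which list a control siRNA, and a blank control in the deposited design, so a difference between the groups and an effect of transfection cannot be told apart if the NC cells received no siRNA.

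Complement is a set of plasma and membrane proteins that marks and damages cells and microbes. C1r and C1s are the serine proteases of the C1 complex, which starts the classical pathway by cutting C4 and C2. C3 is the protein on which all pathways converge, and its fragment C3b attaches to surfaces, where factor B (CFB) joins it to form the alternative pathway convertase that cuts more C3. Soluble and membrane proteins hold this in check. C1 inhibitor (SERPING1) blocks C1r and C1s, factor I (CFI) cuts C3b and C4b, CD46 is a cofactor for factor I, CD55 takes convertases apart, and CD59 stops the membrane attack complex. The liver makes most of the plasma proteins, epithelial and stromal cells also make some, and nearly all nucleated cells carry the membrane regulators.

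Expression is given as FPKM, which the authors computed from fragments per library, corrected for gene size, and expected counts summed to between 51738814 (siGDF15 replicate 2) and 68025163 (NC replicate 2) per library. One read pair was taken as 4 counts, and a count of 0 allows up to 12 counts in a library, a limit that covers counting error only. GDF15 was at 22.4, 19.3 and 23.1 FPKM in NC and at 10.8, 10.5 and 10.7 FPKM in siGDF15, in the direction of the labels. Mitochondrially encoded genes held 6.39 to 6.78% of the counts in NC and 8.53 to 9.17% in siGDF15, a difference whose part in the results below was not tested. Of the thyroid markers only PAX8, a follicular cell transcription factor, and FOXE1 had a mean of at least 1 FPKM, whereas TG stayed at or below 0.219 FPKM and SLC5A5, NKX2-1 and DIO1 at or below 0.0523 FPKM in every library. Some of these markers moved with the group. PAX8 rose from 59.1 ± 5.33 to 79.4 ± 1.7 FPKM (SD, n = 3; edgeR adjusted p = 1.2e-04), while FOXE1 was not called (2.76 and 2.83 FPKM). TG was at 0.0548 ± 0.0185 FPKM in NC and at 0.186 ± 0.0294 FPKM in siGDF15 (SD, n = 3). TG passed a limit of 0.1 FPKM only through siGDF15, so no p-value is given for it. The part of this in the results was not tested. All 4 hepatocyte markers searched (ALB, APOA1, APOB and TTR) were at or under 12 counts in every library, and the leukocyte marker PTPRC was at or below 0.00685 FPKM. The 5 leukocyte markers in the table summed to between 0.248 and 0.467 FPKM in NC and to between 0.649 and 0.964 FPKM in siGDF15. Within that list the monocyte marker CD14 had means of 0.199 FPKM in NC and 0.671 FPKM in siGDF15, whereas CSF1R went the other way without overlap (0.154 and 0.0859 FPKM) and CD163 was at 0.0216 and 0.0170 FPKM. The part of these markers in the results was not tested. The 5 fibroblast markers summed to between 16.4 and 22.6 FPKM in NC and to between 17.2 and 20.6 FPKM in siGDF15, ranges that overlap. In bulk RNA, a change in the number of cells that express a gene cannot be told apart from a change in the RNA per cell.

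The sequences around the transcription starts of members with different outcomes are shown first. RefSeq windows (GRCh38.p14) from 250 bases before to 50 bases after a start were at hand for 6 of the 9 genes. Those of CFI, CD55 and CD59, which were higher in siGDF15, and that of CFB, whose groups overlapped, are printed 5′ to 3′ on the gene's strand. Capitals mark matches on either strand to 4 patterns, where N is any base and neighbouring matches can overlap. They are GGG, NNNNN and CC in a row (NF-κB), TTC, NNN and GAA (STAT factors), GAAA, NN and GAAA (ISRE, the interferon response element) and TT, NN, G, N and AA (C/EBP). The CFI window is chr4:109801950-109802249 on the minus strand, the CFB window chr6:31945845-31946144 on the plus strand, the CD55 window chr1:207321428-207321727 on the plus strand and the CD59 window, the second of 4 listed for that gene, chr11:33736374-33736673 on the minus strand.
CFI: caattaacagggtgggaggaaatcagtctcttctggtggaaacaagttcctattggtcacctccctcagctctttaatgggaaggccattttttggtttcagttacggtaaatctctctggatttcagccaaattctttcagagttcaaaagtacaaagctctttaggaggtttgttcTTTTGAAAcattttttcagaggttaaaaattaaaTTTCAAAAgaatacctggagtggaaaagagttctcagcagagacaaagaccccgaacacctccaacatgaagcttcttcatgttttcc
CFB: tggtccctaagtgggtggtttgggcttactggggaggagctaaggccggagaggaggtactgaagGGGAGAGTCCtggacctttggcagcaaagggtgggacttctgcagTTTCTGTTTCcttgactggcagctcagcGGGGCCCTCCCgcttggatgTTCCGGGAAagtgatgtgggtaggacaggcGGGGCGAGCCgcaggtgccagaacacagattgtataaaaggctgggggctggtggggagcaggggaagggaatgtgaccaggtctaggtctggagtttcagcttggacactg
CD55: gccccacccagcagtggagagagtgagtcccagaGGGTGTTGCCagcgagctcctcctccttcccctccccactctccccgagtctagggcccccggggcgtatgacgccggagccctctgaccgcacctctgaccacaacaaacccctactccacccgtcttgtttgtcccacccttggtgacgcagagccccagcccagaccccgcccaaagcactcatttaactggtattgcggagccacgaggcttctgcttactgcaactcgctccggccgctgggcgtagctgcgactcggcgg
CD59: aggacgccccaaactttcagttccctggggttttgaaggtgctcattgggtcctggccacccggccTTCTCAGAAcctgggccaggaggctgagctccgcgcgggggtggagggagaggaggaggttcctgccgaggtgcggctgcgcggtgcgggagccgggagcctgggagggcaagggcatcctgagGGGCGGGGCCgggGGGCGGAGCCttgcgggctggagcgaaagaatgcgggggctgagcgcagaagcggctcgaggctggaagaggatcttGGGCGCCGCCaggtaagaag

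The CFI window held 2 matches to the C/EBP pattern and none to the other patterns, and its G and C content was 39.3%, below the median of 58.7% over all 35116 windows. The CFB window held 4 matches to the NF-κB pattern, 1 to the STAT pattern at bases -92 to -84 from the start and 1 to the ISRE pattern at bases -140 to -131. The CD55 window held 1 match to the NF-κB pattern, and the printed CD59 window held 3 matches to it and 1 to the STAT pattern. Among windows not printed, the first of C1R, whose groups overlapped, held 2 matches to the C/EBP pattern and 1 to the NF-κB pattern. The second window of C1R held 1 match each to the C/EBP, STAT and NF-κB patterns. Both windows of CD46, which was higher, held 5 matches to the NF-κB pattern and 0 to the others. The third CD59 window held 2 matches to the C/EBP pattern. Whether matches go with the outcomes was not tested. A match to the NF-κB pattern occurs in 58.7% of all windows, to the C/EBP pattern in 36.8%, to the STAT pattern in 7.66% and to the ISRE pattern in 3.57%. These are matches of letters and say nothing of binding.

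C3 had the largest difference in FPKM of the 9 genes. C3 (ENSG00000125730, chromosome 19 from 6677704 to 6730562, minus strand) was at 10.6, 12.9 and 8.01 FPKM in NC and at 76.7, 82.1 and 82.8 FPKM in siGDF15. Every siGDF15 library lay above every NC library, and the libraries were farther apart, relative to their mean, in NC than in siGDF15. The group mean was 10.5 ± 2.46 FPKM (SD, n = 3) for NC against 80.5 ± 3.37 FPKM (SD, n = 3) for siGDF15, a ratio of 7.67. The log2 fold change of C3 on the TMM scale of edgeR was 3.04 (standard error, SE, 0.15), and it stayed between 2.89 and 3.22 with each library left out in turn. TMM, which rescales each library by the typical gene, gave factors of 1.03 to 1.04 in NC and 0.958 to 0.972 in siGDF15, so these log2 fold changes lie above the log2 ratios of FPKM.

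CFB, the partner of C3b in the alternative pathway convertase, did not show such a difference. CFB (ENSG00000243649, chromosome 6 from 31945650 to 31952084, plus strand) was at 0.993, 0.689 and 1.05 FPKM in NC and at 0.819, 1.04 and 1.15 FPKM in siGDF15. The groups overlapped, with means of 0.909 ± 0.193 and 1.00 ± 0.169 FPKM (SD, n = 3). As its mean over the 6 libraries was 0.956 FPKM, CFB was outside the main test, which covered the 11867 genes with a mean of at least 1 FPKM. With the limit at 0.1 FPKM its log2 fold change was 0.22 (SE 0.20). There were 10.6, 18.8 and 7.65 FPKM of C3 for each FPKM of CFB in NC, and 93.6, 79.0 and 71.9 in siGDF15.

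C1R and C1S, the proteases of the classical pathway, lie beside each other on chromosome 12 and had similar values. C1R (ENSG00000159403, from 7080214 to 7092493, minus strand) was at 1.66, 1.79 and 1.94 FPKM in NC and at 1.94, 2.47 and 1.70 FPKM in siGDF15. C1S (ENSG00000182326, from 6988259 to 7071032, plus strand) was at 1.08, 1.09 and 1.28 FPKM in NC and at 1.11, 1.63 and 1.23 FPKM in siGDF15. For both genes the groups overlapped and siGDF15 replicate 2, the library with the lowest total count, was the highest of the 6. The log2 fold change was 0.29 (SE 0.15) for C1R and 0.31 (SE 0.16) for C1S, and neither was called. Without siGDF15 replicate 3, in which C1R was lowest among the siGDF15 libraries, C1R was called higher with a log2 fold change of 0.41, and without siGDF15 replicate 2 the log2 fold changes were 0.12 for C1R and 0.13 for C1S. The ratio of C1R to C1S in FPKM was between 1.51 and 1.64 in NC and between 1.38 and 1.74 in siGDF15. C1S overlaps on the same strand a gene listed without a symbol and described as an EMG1-C1S readthrough (ENSG00000290146), and with the counts of that gene added the log2 ratio of C1S was 0.26.

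CFI, the protease that cuts C3b, had the largest ratio between the groups and the lowest level in NC. CFI (ENSG00000205403, chromosome 4 from 109731008 to 109802150, minus strand) was at 0.0480, 0.0197 and 0 FPKM in NC and at 0.902, 0.833 and 0.908 FPKM in siGDF15. These values rest on 22, 9 and 0 counts in NC and on 363, 258 and 364 counts in siGDF15. In NC only replicate 1 was above the limit of 12 counts, whereas every siGDF15 library was far above it. In read pairs this was 8 against 246, a ratio of 33.4 per total count with an exact 95% counting interval of 16.7 to 78.2. Without NC replicate 1, which held most of the NC counts, the log2 ratio of mean FPKM was 6.48, against 5.29 with all libraries. The ratio also depends on how reads were shared with another gene. ENSG00000285330, listed without a symbol on the same strand from 109713916 to 109801999, overlaps CFI, and in GENCODE 29 65.5% of its exon bases are also exon bases of CFI. It had 0, 46 and 8 counts in NC and 0 in each siGDF15 library. With its counts added, a step chosen after the data were seen, the NC libraries had 22, 55 and 8 counts, against 363, 258 and 364 in the siGDF15 libraries. The ratio per total count was then 12.7, with an exact 95% counting interval of 8.14 to 20.9, and the groups still did not overlap. Both intervals pool the libraries of a group and leave out the spread between them.

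**Figure D1:**
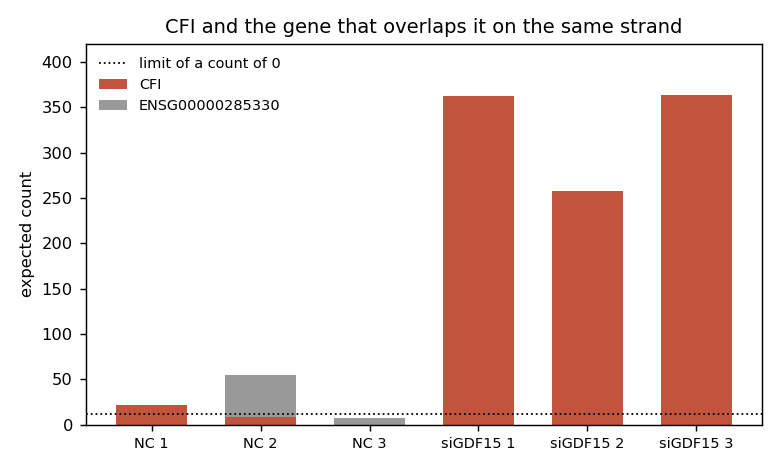
Expected counts (vertical axis) of CFI (red) and of the overlapping gene ENSG00000285330 (grey), stacked, in each of the 6 libraries. The dotted line is the limit of 12 counts that a count of 0 allows, and the 3 siGDF15 bars (258 to 364 counts) stand above the stacked NC bars (8 to 55 counts).

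SERPING1, which encodes the inhibitor of C1r and C1s, was low and its groups overlapped. SERPING1 (ENSG00000149131, chromosome 11 from 57597387 to 57619171, plus strand) was at 0.308, 0.404 and 0.484 FPKM in NC and at 0.336, 0.413 and 0.389 FPKM in siGDF15. The means were 0.399 ± 0.0882 and 0.379 ± 0.0397 FPKM (SD, n = 3), from 169 to 265 counts per library. Its log2 fold change with the limit at 0.1 FPKM was 0.01 (SE 0.21). It was the only one of the 9 genes with a lower mean FPKM in siGDF15. There were 4.0 to 5.38 FPKM of C1R for each FPKM of SERPING1 in NC and 4.35 to 5.99 in siGDF15.

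The 3 membrane regulators were each higher in every siGDF15 library than in every NC library, by far less than C3 or CFI. CD59 (ENSG00000085063, chromosome 11 from 33703010 to 33736425, minus strand), which stops the membrane attack complex, was at 21.0, 21.7 and 21.4 FPKM in NC and at 27.9, 27.1 and 28.4 FPKM in siGDF15. Its log2 fold change was 0.48 (SE 0.040), and its libraries differed least within a group, with an SD of 1.5% of the mean in NC and 2.34% in siGDF15. CD55 (ENSG00000196352, chromosome 1 from 207321519 to 207373246, plus strand), which takes convertases apart, was at 1.80, 1.59 and 1.77 FPKM in NC and at 2.32, 2.64 and 2.42 FPKM in siGDF15. CD55 had a log2 fold change of 0.62 (SE 0.082), the largest of the membrane regulators. CD46 (ENSG00000117335, chromosome 1 from 207752037 to 207795513, plus strand), the cofactor of factor I, was at 14.6, 15.8 and 13.4 FPKM in NC and at 17.2, 16.3 and 17.0 FPKM in siGDF15. The gap between the groups was narrow for CD46, from 15.8 to 16.3 FPKM, and its log2 fold change was 0.31 (SE 0.060). The table gives 1 value per gene, so splice forms of these proteins were not told apart.

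**Figure D2:**
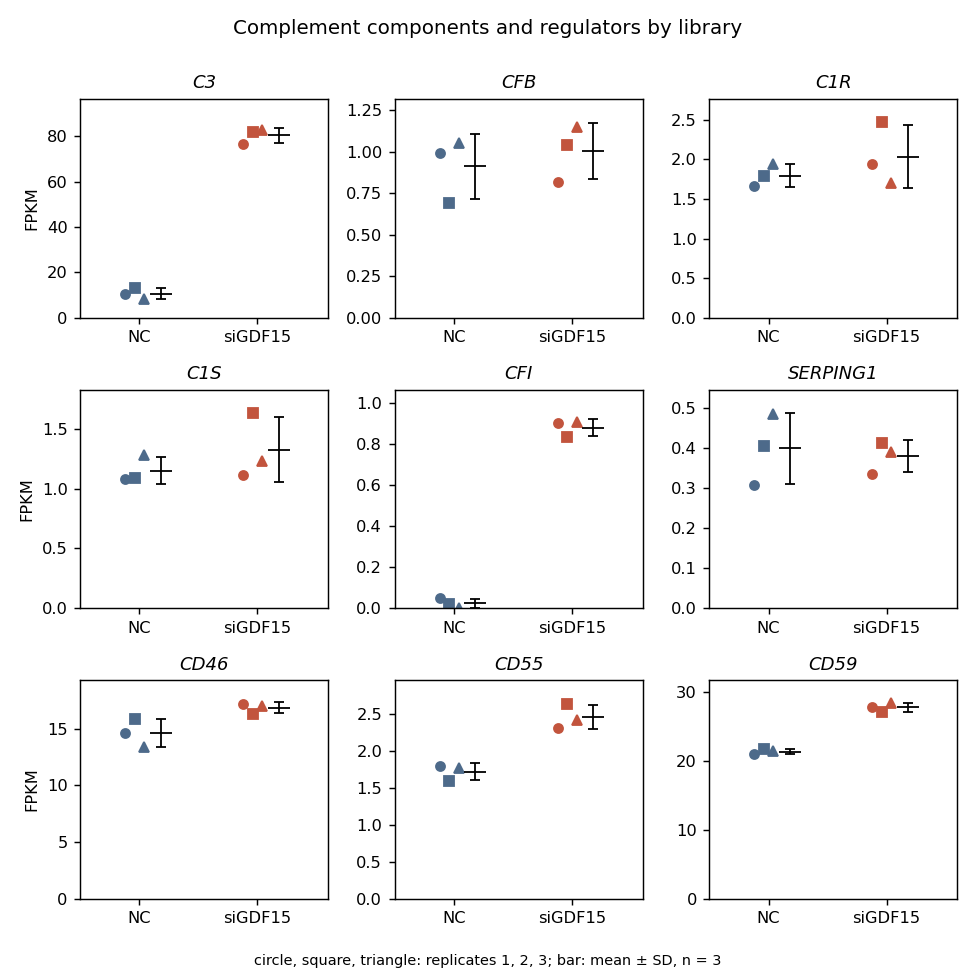
FPKM (vertical axes, each from 0) of the 9 complement genes in the NC (blue) and siGDF15 (red) libraries, with a symbol per replicate and bars for the mean ± SD (n = 3). C3, CFI, CD46, CD55 and CD59 do not overlap between the groups, and CFB, C1R, C1S and SERPING1 do.

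Of the 9 genes, 6 passed the limit of 1 FPKM (C3, C1R, C1S, CD46, CD55 and CD59), and 4 of these 6 were called higher at an adjusted p-value under 0.05, beside 30.0% of all 11867 tested genes. With edgeR 0 were called lower, beside 31.4% of tested genes, 0 were lower at an unadjusted p under 0.05, and DESeq2 also called 4 higher and 0 lower. With a log2 fold change of at least 1 as well, C3 alone was called, beside 3.03% of tested genes. With the limit at 0.1 FPKM all 9 were tested and 5 were called higher, beside 20.1% of the genes tested there, CFI being the fifth. CFI passed that limit only through siGDF15, where it was high. The groups did not overlap in 5 of the 9 genes, and in 4 of the 6 that passed 1 FPKM, beside 68.4% of tested genes. Nothing is read from these counts, as the genes were picked with this contrast known. Without TMM, 36.6% of all called genes were higher, against 48.9% with it, and the calls of the 6 members tested were the same.

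The order of the 9 levels differed between the groups. In NC the order from the highest was CD59, CD46, C3, C1R, CD55, C1S, CFB, SERPING1 and CFI, and only the neighbours C1R and CD55 overlapped. In siGDF15 it was C3, CD59, CD46, CD55, C1R, C1S, CFB, CFI and SERPING1, and CD55 and C1R, C1S and CFB, and CFB and CFI overlapped. The summed level of the 9 genes was 52.1, 56.0 and 49.3 FPKM in NC and 129, 134 and 136 FPKM in siGDF15. C3 made up 16.2 to 23.1% of that sum in NC and 59.3 to 61.0% in siGDF15. There were 0.375 to 0.596 FPKM of C3 for each FPKM of CD59 in NC, and 2.75 to 3.03 in siGDF15. The membrane regulators kept nearer to each other, with 1.37 to 1.6 FPKM of CD59 for each FPKM of CD46 in NC and 1.62 to 1.67 in siGDF15.

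**Figure D3:**
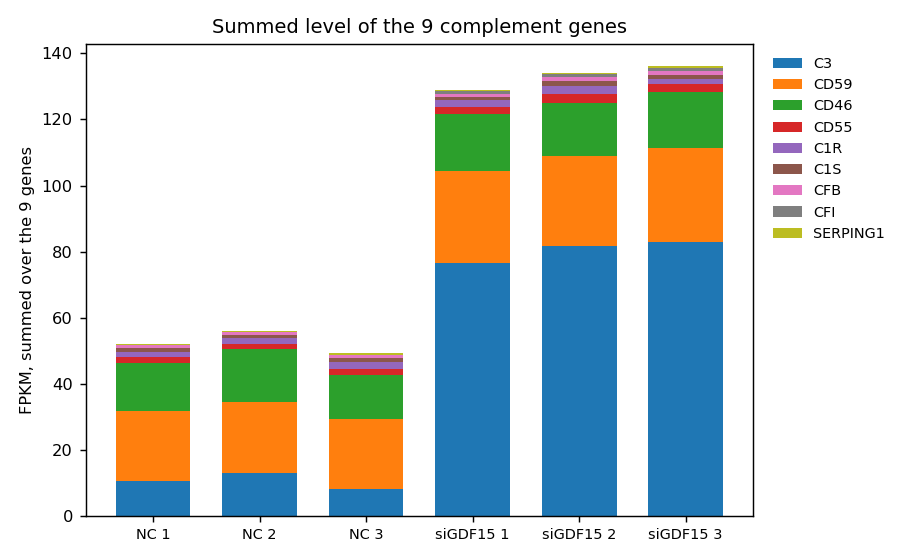
FPKM summed over the 9 complement genes (vertical axis) in each library, stacked by gene. The sum is 49.3 to 56.0 in NC and 129 to 136 in siGDF15, and C3 (blue, lowest segment) holds most of the difference.

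The rest of the complement system was taken from a list of 53 other genes, of which 46 were in the table. Most were barely expressed. Of the 46, 25 had a mean under 0.1 FPKM, 15 a mean from 0.1 to 1 FPKM and 6 a mean of at least 1 FPKM, and 14 were at or under 12 counts in every library. Of the 6 tested, edgeR called 5 higher, beside 30.0% of all tested genes, and 0 lower, beside 31.4%, with 0 lower at an unadjusted p under 0.05 and 0 by DESeq2, and their median log2 fold change was 0.92 beside 0.00 for all tested genes. Each of the 6 had a mean above 1 FPKM in NC too, so none passed the limit through siGDF15 alone. This list was also chosen with earlier results of these data known, so its counts and the p-values below only describe it.

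C1RL, a C1r-like protease gene that overlaps C1R on the same strand, rose from 2.35, 2.98 and 1.89 FPKM to 5.36, 5.54 and 5.87 FPKM (log2 fold change 1.32, SE 0.14, edgeR adjusted p = 8.7e-05). The libraries of C1RL did not overlap between the groups, unlike those of C1R and C1S in the same cluster.

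CFD, which encodes factor D, the protease that cuts factor B, rose from 2.46, 2.64 and 2.98 FPKM to 4.90, 4.45 and 4.86 FPKM. Its log2 fold change was 0.92 (SE 0.12, edgeR adjusted p = 2.7e-04). CLU, which encodes clusterin, a soluble inhibitor of the membrane attack complex, had the highest mean level of the complement genes in each group, at 113, 149 and 89.2 FPKM in NC and 200, 209 and 206 FPKM in siGDF15 (log2 fold change 0.92, SE 0.15, edgeR adjusted p = 9.3e-04). SUSD4, a membrane protein with complement control domains, rose from 2.14, 2.07 and 2.40 FPKM to 3.09, 3.39 and 3.31 FPKM, a log2 fold change of 0.67 (SE 0.090, edgeR adjusted p = 2.9e-04). C1QBP, a mostly mitochondrial protein that binds C1q, had a log2 fold change of -0.16 (SE 0.086, edgeR adjusted p = 0.15). Its groups did not overlap, and it was called lower without TMM (-0.26), with limma (-0.25 at either pseudocount) and without NC replicate 2 (-0.24).

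**Figure D4:**
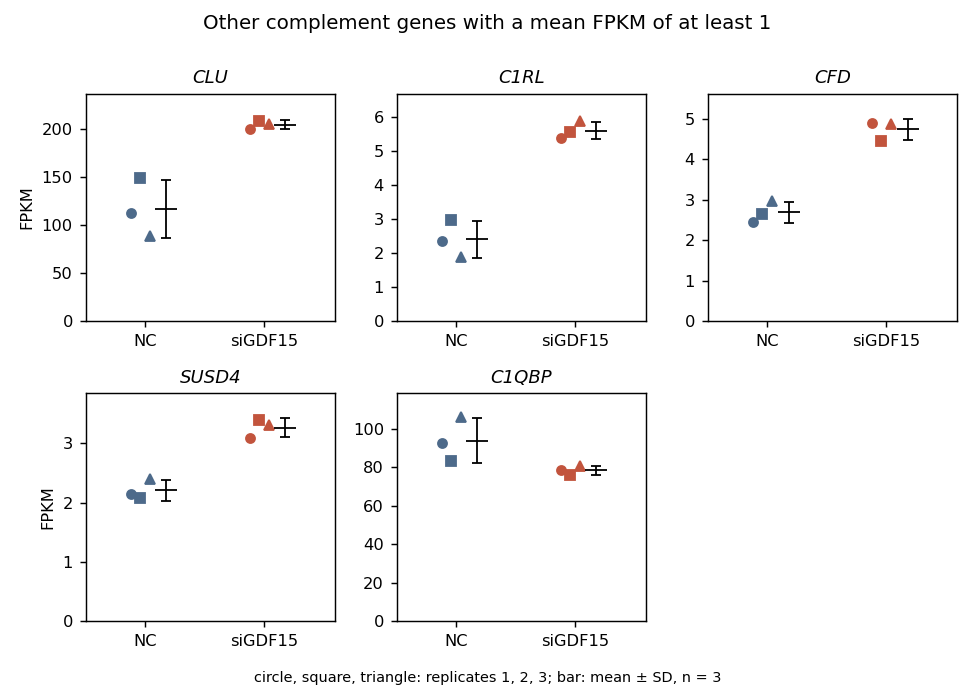
FPKM (vertical axes, each from 0) of other complement genes with a mean of at least 1 FPKM, by library, with bars for the mean ± SD (n = 3). CLU, C1RL, CFD and SUSD4 are higher in all 3 siGDF15 libraries, and C1QBP is lower.

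With the limit at 0.1 FPKM, 21 of the 46 genes were tested, 10 were called higher beside 20.1% of the genes tested there, and 0 were called lower beside 22.1%. The additional calls included C5, C4BPA, VTN and C5AR1. VTN, which encodes vitronectin, another soluble inhibitor of the membrane attack complex, was at 0.0902, 0.138 and 0.319 FPKM in NC and at 0.788, 0.728 and 0.807 FPKM in siGDF15. C4BPA, a subunit of the C4b-binding protein, which is a cofactor of factor I, had 11, 3 and 0 counts in NC and 44, 72 and 68 in siGDF15, a ratio of 12.5 per total count with an exact 95% counting interval of 4.56 to 47.8. C4BPA passed the limit only through siGDF15. C5AR1, the receptor for C5a, had a log2 fold change of 1.72 (SE 0.24, edgeR adjusted p = 4.3e-04) and C5, the precursor of C5a, one of 0.59 (SE 0.14, edgeR adjusted p = 0.0075).

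**Figure D5:**
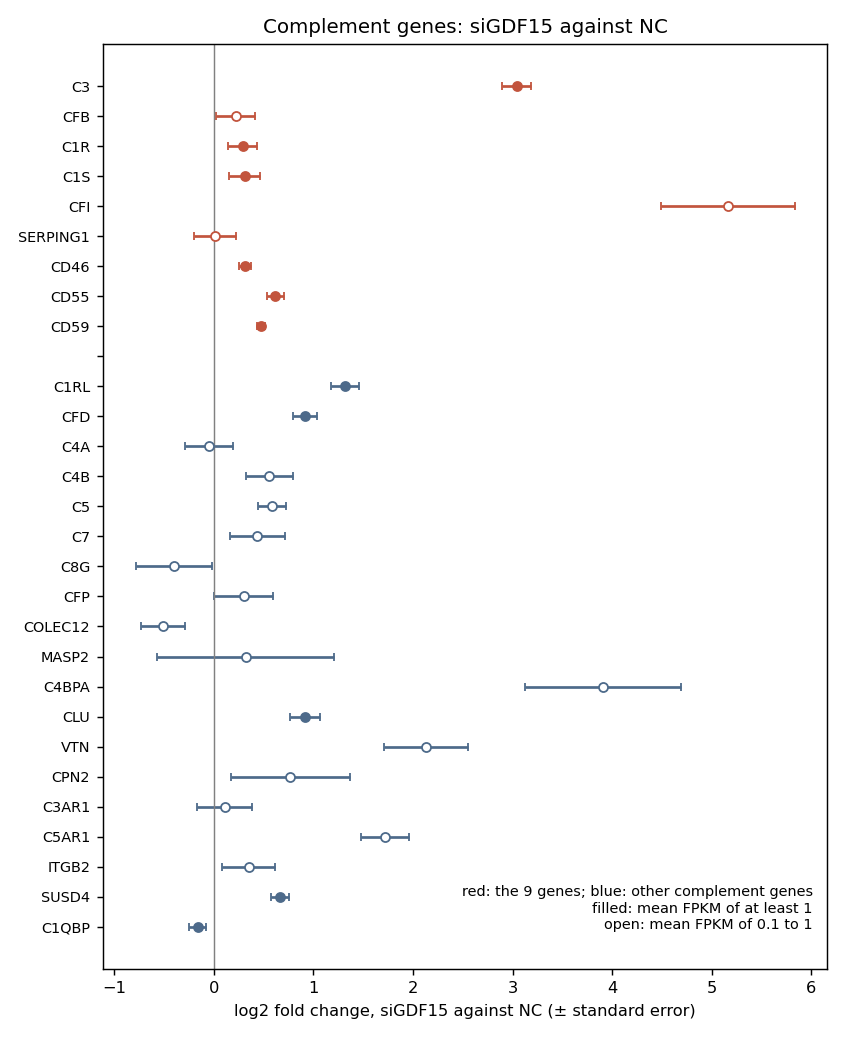
Log2 fold change of siGDF15 against NC (horizontal axis) with its standard error for the 9 complement genes (red) and other complement genes (blue). Filled points come from the fit with a mean of at least 1 FPKM and open points from that with at least 0.1 FPKM. CFI (5.16), C4BPA (3.91) and C3 (3.04) lie farthest to the right.

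Complement genes in the clusters of the members and the nearest tested genes on either side are described next. C2, which lies before CFB, stayed between 0.0161 and 0.0561 FPKM in all libraries, and C4A was at 0.209, 0.222 and 0.200 FPKM in NC and at 0.145, 0.178 and 0.252 FPKM in siGDF15. C4B was at 0.153, 0.141 and 0.0991 FPKM in NC and at 0.171, 0.197 and 0.192 FPKM in siGDF15, and since C4A and C4B are near-identical copies their reads cannot be assigned with certainty. Around CD55 and CD46 in the cluster of complement regulators on chromosome 1, CR1 stayed at or below 0.0419 FPKM, CR2 at or below 0.0540 FPKM and C4BPB at or below 0.109 FPKM. Among the 14 nearest tested genes on either side of the members, 6 were called higher, beside 30.0% of tested genes, and 2 lower, beside 31.4%, with a median log2 fold change of 0.04. Nearest did not always mean close, as the distance between starts ran from 6.44 kb (NELFE and CFB) to 708 kb (YOD1 and CD46). The largest changes were in C1RL, in KIAA1549L next to CD59 (log2 fold change -1.20, SE 0.082, edgeR adjusted p = 6.7e-06), in PLXNA2 after CD46 (log2 fold change -0.86, SE 0.066, edgeR adjusted p = 1.3e-05) and in TNFSF9, 147 kb from C3 (log2 fold change 0.68, SE 0.062, edgeR adjusted p = 3.3e-05). GPR108, which overlaps C3 on the same strand, was also called higher (log2 fold change 0.60, SE 0.076, edgeR adjusted p = 2.1e-04). The tested neighbours of CFI were PLA2G12A and GAR1, and the part of position in the differences was not tested. PLA2G12A had a log2 fold change of 0.30 (SE 0.087, edgeR adjusted p = 0.015), not called without siGDF15 replicate 3 (0.23), without TMM (0.20), with no filter (0.25) or with limma (0.15 and 0.19), and GAR1 one of -0.07 (SE 0.11, edgeR adjusted p = 0.62).

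Interferon, IL6, IL1 and TNF signals are known to raise the transcription of C3, CFB and other complement genes in many cell types, so 22 genes of receptors, kinases and transcription factors on these routes were examined as a list. Of 21 tested, 11 were called higher, beside 30.0% of all tested genes, and 4 lower, beside 31.4%, with a median log2 fold change of 0.30. CEBPD, a C/EBP transcription factor, rose from 25.3 ± 4.21 to 65.9 ± 2.87 FPKM (SD, n = 3), with a log2 fold change of 1.49 (SE 0.11, edgeR adjusted p = 1.0e-05). STAT2, of the interferon route, rose from 3.52 ± 0.494 to 6.79 ± 0.335 FPKM (SD, n = 3), the NF-κB subunit gene RELB from 7.47 ± 0.791 to 12.7 ± 0.744 FPKM and the interferon gamma receptor gene IFNGR1 from 8.87 ± 0.366 to 14.3 ± 0.356 FPKM. C3 is also an acute phase protein, and of 21 other genes of that class 3 were tested. SAA1, which encodes serum amyloid A, rose from 3.66 ± 0.891 to 8.32 ± 0.459 FPKM (SD, n = 3), LCN2, which encodes lipocalin 2, rose from 2.72 ± 0.741 to 4.02 ± 0.666 FPKM, although its groups overlapped and it was not called with no filter or without NC replicate 1, NC replicate 2, siGDF15 replicate 2 or siGDF15 replicate 3 (log2 fold changes of 0.54 to 0.61 there against 0.66), and SERPINA1, the gene of alpha-1 antitrypsin, fell from 9.45 ± 2.02 to 4.02 ± 0.145 FPKM (log2 fold change -1.12, SE 0.13, edgeR adjusted p = 1.4e-04).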

How the data were processed

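Total RNA was extracted from siGDF15 and NC cells, poly(A) RNA was selected, and 3 libraries per group were sequenced as read pairs of 150 bases. Per the labels, the authors used fastp, HISAT2, StringTie and edgeR with GRCh38, and versions and the annotation release were not given in the sources used here. The deposited table holds FPKM, which the authors scaled by length and library, and expected counts, which appear to be derived from transcript coverage and are not normalized. The most frequent low count was 4, so 4 counts were taken as 1 read pair. No per-library column was left out. The members and all lists were chosen with earlier results of these data known, so the counts and p-values of the lists are descriptive.

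Genes whose FPKM averaged 1 or more over the 6 libraries were tested with the quasi-likelihood test of edgeR 4.0.16 on the deposited expected counts (TMM, two-sided, siGDF15 against NC, Benjamini-Hochberg adjustment over 11867 genes). A gene was called at an adjusted p-value under 0.05. The methods call the libraries biological replicates without naming separate cultures, so p-values measure the spread between these libraries. Replicates of a group differed by more than counting noise (chi-square per degree of freedom of 3.25 to 17.4 in read pairs). Alternatives were scaling without TMM or to the same median, DESeq2 1.42.0, other filters, limma 3.58.1 on log2(FPKM + 1) and log2(FPKM + 0.1), counts divided by 4, the replicate block and each library left out. Counting intervals of ratios are exact binomial intervals at 95% on read pairs summed over each group, and they leave out the spread between libraries. R 4.3.3 and Python 3.11.15 with scipy 1.17.1 were used, and the fit was tested on simulated data.

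All members and the tested genes of the complement list were named, except genes not reported here (the counts include them), with per-library values for up to 6 called genes and for genes in the clusters of the members, and up to 4 called genes of each other list. The additional calls at 0.1 FPKM, the neighbour GPR108 and the genes of the closing section were named after their values were seen.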

Additional observations from a re-analysis of the deposited data

How the results depend on the processing

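Over 15 alternatives, the calls of C3, CD46, CD55 and CD59 (higher) and of C1S (not called) were the same, and C1R was called only without siGDF15 replicate 3. Requiring a log2 fold change of at least 1 left 1 member called higher. The other complement genes called higher numbered 10 of 21 tested with a mean FPKM of at least 0.1, and 10 of 46 with no filter. Over all genes these filters called 3885 of 19360 and 3300 of 34738 higher. Other complement genes called lower numbered 1 without TMM, with no filter and with limma at either pseudocount. With each library left out they numbered 0 to 1 (1 without NC replicate 2). Except with no filter, that gene was C1QBP. Of the KEGG complement and coagulation genes outside the 9, 18 of 34 were called at 0.1 FPKM (14 higher, 4 lower). With no filter 20 of 65 were called, against 10 of 15. Of the acute phase genes 7 of 11 (6 higher, 1 lower) and 6 of 19 were called, against 3 of 3. Among those called higher at 0.1 FPKM, LBP had means of 0.0142 FPKM in NC and 0.214 FPKM in siGDF15. LBP thus passed that limit only through siGDF15, as did C4BPA among the KEGG genes. Over all genes 8169 of 19360 and 7362 of 34738 were called, against 7286 of 11867. More genes are tested under those filters. Scaling without TMM moved the median log2 fold change of all tested genes to -0.099. The deviations of same-numbered libraries correlated by 0.0276, -0.0753 and 0.0458, against -0.135 to 0.0891 for libraries of different numbers. No pairing by replicate number was visible, but these values cannot show whether the cultures were paired. With the replicate block 4 members were called higher, as without it, and 3391 genes were called higher and 3515 lower in all, against 3565 and 3721. The log2 ratio of CFI ranged from 4.70 without NC replicate 3 to 6.48 without NC replicate 1, and was 3.76 with the counts of ENSG00000285330 added. With each library left out, the log2 ratio of mean FPKM ranged from -0.02 to 0.27 for CFB and from -0.23 to 0.09 for SERPING1, across 0 for both. CFI, CFB and SERPING1 are limited by depth, at 0 to 465 counts per library.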

Other observations

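The deposited annotation places 65 genes other than the 9 in the KEGG pathway of complement and coagulation cascades, and 15 had a mean of at least 1 FPKM. Of these, edgeR called 6 higher, beside 30.0% of all tested genes, and 4 lower, beside 31.4%, and their median log2 fold change was 0.16. Besides CLU and CFD, the higher genes included 3 of the coagulation part. F2RL2, a protease-activated receptor gene, rose from 2.27 ± 0.179 to 4.38 ± 0.282 FPKM (SD, n = 3), PROS1, the gene of the anticoagulant protein S, from 5.11 ± 0.872 to 7.13 ± 0.533 FPKM, and TFPI, the gene of the tissue factor pathway inhibitor, from 8.36 ± 1.1 to 10.5 ± 0.232 FPKM. The lower genes were SERPINA1, THBD (thrombomodulin), PLAUR (the urokinase receptor) and PLAU (urokinase). PLAU, at 202 ± 16.0 FPKM (SD, n = 3) in NC against 163 ± 3.89 FPKM (SD, n = 3) in siGDF15, had a log2 fold change of -0.20 (adjusted p = 0.016 from edgeR), and PLAUR one of -0.51 (adjusted p = 1.1e-04 from edgeR). Without siGDF15 replicate 3, PLAU (-0.18) and THBD (-0.84, against -0.90) were not called.

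C3 and CD46 were highest in NC replicate 2 and lowest in NC replicate 3, whereas CFB, CFI, C1R, C1S, CD55, CD59 and SERPING1 were not. Of the other complement genes named with a mean of at least 1 FPKM, CLU and C1RL had this order, and CFD, SUSD4 and C1QBP did not. CEBPD had it too. SERPINA1, which was lower in siGDF15, had the same order of the NC libraries. Over all tested genes 33.1% had this order. It was held by 38.5% of the genes called higher and by 45.6% of the 360 genes that were also higher by a log2 fold change of at least 1, against 29.5% of the genes called lower. The libraries of the NC group carry no label that goes with this order, and its cause was not tested.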
